A study of Mus musculus with 10 samples.

Results

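The 10 genes described here encode protein disulfide isomerases (PDIs) and close relatives: P4hb, Pdia3, Pdia4, Pdia5, Pdia6, Txndc5, Txndc11, Erp44, Tmx1 and Tmx3. They were chosen by name from this enzyme family, with earlier results of these data known. They are 10 of 21887 protein-coding genes whose spans were searched. A gene was given every XBP-1 peak whose summit lay inside its mouse RefSeq span (build GRCm38.p6, the mm10 assembly) or within 5 kb of either end. XBP-1 was mapped by chromatin immunoprecipitation and sequencing (ChIP-seq) in whole liver of C57BL/6J mice with an antibody against the spliced form, XBP-1s. The study has 8 immunoprecipitated libraries, 2 in each of 4 groups. Fed and Fasted libraries came from livers of wild-type mice that had been fed or fasted, and were called against the library Input-1. WT libraries came from wild-type mice serving as controls for the knockout, Ern1-LKO libraries from mice lacking Ern1 in the liver only, and both were called against Input-2. Ages, the length of the fast, the feeding state of the WT and Ern1-LKO mice and the construct used to delete Ern1 are not given in the sources used here. The labels do not say that replicates came from separate animals, so differences between replicates may be technical. Peak lists carry no RNA, so neither the deletion of Ern1 nor the tissue could be checked with these files.

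PDIs form, break and rearrange disulfide bonds in proteins folding in the endoplasmic reticulum (ER), which makes them central to the liver's output of plasma proteins. IRE1, the ER stress sensor encoded by Ern1, removes an intron from the Xbp1 mRNA, and the spliced mRNA encodes XBP-1s. XBP-1s is a leucine zipper factor of the unfolded protein response known to bind sites with an ACGT core and, together with other factors, the ER stress response element, in which CCAAT and CCACG are separated by any 9 bases.

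Sequence just upstream of the start is shown for P4hb, Pdia3, Pdia4 and Pdia6, because most of their summits fell inside it. Each run is 100 bases of GRCm38.p6 ending at the base before the start, 5′ to 3′ in the direction of the gene, with matches on either strand to ACGTG in capitals, and likewise matches to the half-element CCACG and to the box CCAAT. P4hb lies at chr11:120573254-120573353 on the minus strand, Pdia3 at chr2:121413802-121413901 on the plus strand, Pdia4 at chr6:47813513-47813612 on the minus strand and Pdia6 at chr12:17266489-17266588 on the plus strand. The run held 4 of 7 start summits for P4hb, 8 of 8 for Pdia3, 8 of 8 for Pdia4 and 7 of 8 for Pdia6.
P4hb: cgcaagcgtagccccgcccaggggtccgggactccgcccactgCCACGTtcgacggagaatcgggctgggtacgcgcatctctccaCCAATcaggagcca
Pdia3: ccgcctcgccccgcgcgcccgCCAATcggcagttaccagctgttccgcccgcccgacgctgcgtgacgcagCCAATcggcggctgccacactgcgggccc
Pdia4: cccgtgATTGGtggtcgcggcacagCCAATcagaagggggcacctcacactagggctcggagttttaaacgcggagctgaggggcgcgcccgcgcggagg
Pdia6: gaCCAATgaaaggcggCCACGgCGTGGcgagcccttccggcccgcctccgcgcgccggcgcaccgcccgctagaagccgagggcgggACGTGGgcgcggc

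For 3 further members the same 7 letters, GACGTGG, lay close to the summits, and 30 bases around them are shown with the same capitals to let the flanks be compared. They lie at chr16:35490865-35490894 for Pdia5, chr13:38528034-38528063 for Txndc5 and chr16:11134616-11134645 for Txndc11, all on the minus strand. These short runs held 3 of 8 start summits for Pdia5, 4 of 8 for Txndc5 and 5 of 8 for Txndc11. For contrast, the 100 bases before the Tmx1 start, chr12:70453054-70453153 on the plus strand, held none of the 3 elements and 2 of the 4 start summits of that gene.
Pdia5: catgctttggcagACGTGGcaccgggaact
Txndc5: ggcctcgccgctgACGTGGcgctagccgcc
Txndc11: tgaagtgtggctgACGTGGagagtccgggt
Tmx1: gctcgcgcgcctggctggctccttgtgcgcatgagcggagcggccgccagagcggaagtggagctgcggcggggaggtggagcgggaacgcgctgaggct

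Among the 698 highest peaks of each list, 698 being the length of the shortest, 7 of the 10 PDI genes appeared in at least 5 libraries, Erp44 in 2 and Tmx1 and Tmx3 in 0. Over whole lists, Pdia3, Pdia4, Pdia5, Pdia6, Txndc5 and Txndc11 had a peak in all 8 libraries, and P4hb had one in 7. Erp44 had a peak in 6 libraries and Tmx1 and Tmx3 in 5 each. Of all protein-coding genes, 577 (2.64%) had a peak in their window in all 8 libraries, against 6 of these 10. Among 13 further PDI family genes, 1 had a peak in all 8.

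The lists differed widely in length, which limits what a missing peak shows. Kept tags ran from 4340956 in Ern1-LKO replicate 2 to 17399899 in Fed replicate 1 and peaks from 698 in Ern1-LKO replicate 1 to 82975 in Fed replicate 1, and the replicates of a group differed as much as the groups did. All 10 genes had a peak in Fed replicate 1, Fed replicate 2, Fasted replicate 1 and Ern1-LKO replicate 2, where 76.1%, 71.2%, 73.1% and 62.4% of protein-coding genes had one. In WT replicate 2, 9 of the 10 genes had a peak, against 65% of all genes. Fasted replicate 2 held 8 of the 10 against 43.6% of all genes, and WT replicate 1 held 8 against 19.6%. Ern1-LKO replicate 1, the shortest list, held 6 of the 10 while 3.58% of all genes had a peak. In the long lists the count of PDI genes was therefore not far from the background, and in the short lists it stood well above it.

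Equal numbers of peaks remove part of that difference. Within the 698 peaks of each list with the highest −log10 q (the caller's confidence, as a q-value), 8 of the 10 genes were present in Fed replicate 1 against 3.99% of all genes. The count was 7 in Fed replicate 2 (3.95% of all genes), 7 in Fasted replicate 1 (3.91%) and 5 in Fasted replicate 2 (2.93%). It was 8 in WT replicate 1 (3.54%) and 7 in WT replicate 2 (4.01%). Ern1-LKO replicate 1 gave 6 (3.58%) and Ern1-LKO replicate 2 gave 5 (3.83%). Pdia3, Pdia4, Pdia6, Txndc5 and Txndc11 were among these top peaks in all 8 libraries, as were 121 genes in all (0.553%).

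**Figure D1:**
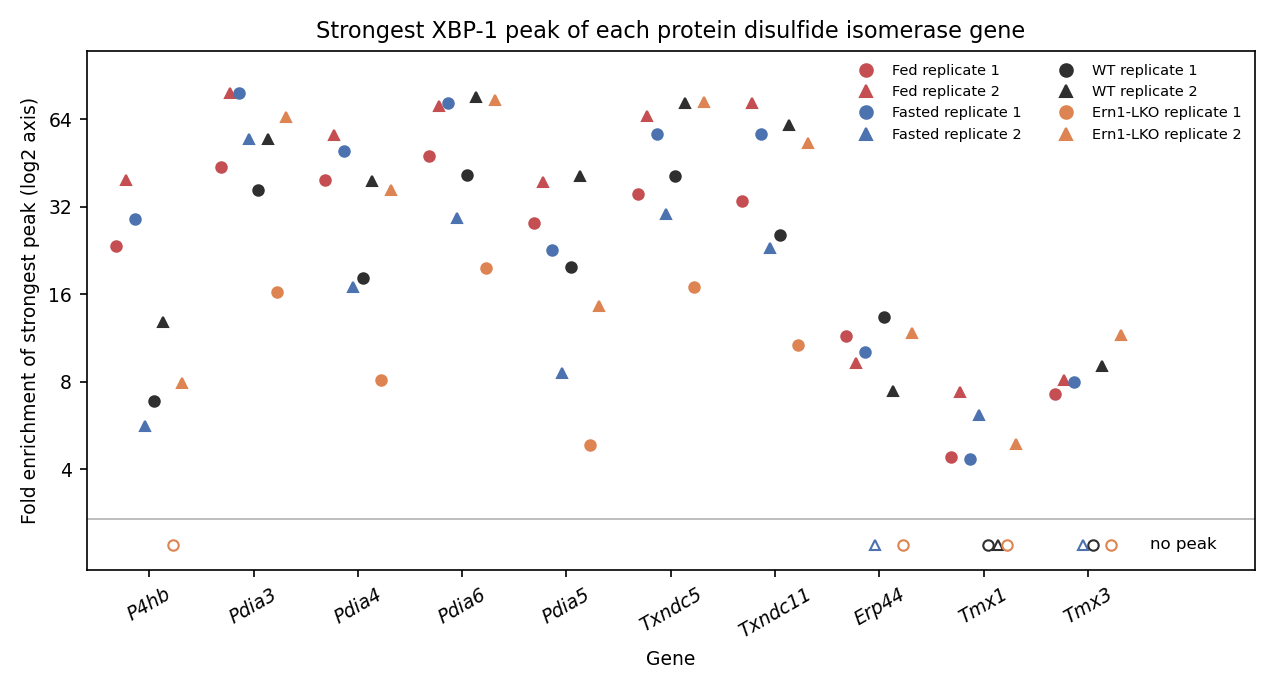
Fold enrichment of the strongest peak of each of the 10 genes (log2 axis), 1 mark per library, with colour for group, shape for replicate and open marks below the line where a list held no peak. Pdia3 runs from 16.3 to 78.5, while Tmx1 stays between 4.34 and 7.40 and is missing from 3 libraries.

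Fold enrichment, the authors' ratio of tags at the summit to the local background, is given next for the peak at each gene's start. It is used to order peaks within a list, since no scaling makes it comparable between lists. Pdia3 encodes ERp57, the disulfide isomerase that works with calnexin and calreticulin on glycoproteins. Its fold enrichment was 43.8 and 78.5 in the Fed libraries, 78.5 and 54.8 in the Fasted, 36.5 and 54.5 in the WT and 16.3 and 65.4 in the Ern1-LKO libraries. By −log10 q the peak was near the head of every list, at rank 14 and 4 in the Fed, 2 and 3 in the Fasted, 7 and 13 in the WT and 13 and 4 in the Ern1-LKO libraries. Its summits were the tightest of the family, between 30 and 3 bp upstream of the start at position 121413902 of chromosome 2. Catsper2, a sperm ion channel gene read in the other direction, starts beside it, and a peak without strand cannot be given to either gene.

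P4hb encodes PDI itself, which is also the beta subunit of prolyl 4-hydroxylase and a subunit of the microsomal triglyceride transfer protein complex. Its start peak had a fold enrichment of 23.5 and 39.6 in the Fed, 29.0 and 5.63 in the Fasted, 4.32 and 12.9 in the WT, and none and 7.94 in the Ern1-LKO libraries. The ranks were 71 and 54 in the Fed, 64 and 7210 in the Fasted, 594 and 193 in the WT, and 2758 in Ern1-LKO replicate 2. It ranked lowest in Fasted replicate 2 and Ern1-LKO replicate 2 and was missing from Ern1-LKO replicate 1, while its lowest fold was that of WT replicate 1. In WT replicate 1 the strongest peak by fold lay inside the gene, 1968 bp downstream of the start, at 6.87.

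The P4hb peak looked weaker as a ratio than as tags. Its summit held 301 and 240 tags in the Fed, 169 and 36 in the Fasted, 99 and 212 in the WT and 57 in Ern1-LKO replicate 2, against 369, 354, 344, 265, 253, 326 and 219 at Pdia3 in those libraries. Each fold is a ratio of tags plus 1 to background plus 1, so the summit tags plus 1, divided by the fold, return the local background plus 1. This was 12.8 and 6.09 in the Fed, 5.86 and 6.58 in the Fasted, 23.2 and 16.6 in the WT, and 7.31 in Ern1-LKO replicate 2. In each of these 7 libraries this was above the highest value at the strongest peak of any other member, such as 8.27 in WT replicate 1 and 10.4 in WT replicate 2. The part of this local background in the low P4hb ratios was not tested.

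Pdia4 (ERp72) and Pdia6 (P5) encode isomerases with several thioredoxin-like domains, and P5 works beside the ER chaperone BiP. The Pdia4 fold enrichment was 39.6 and 56.4 in the Fed, 49.8 and 17.0 in the Fasted, 18.3 and 39.2 in the WT and 8.15 and 36.5 in the Ern1-LKO libraries. That of Pdia6 was 47.6 and 71.2 in the Fed, 72.7 and 29.4 in the Fasted, 41.2 and 76.5 in the WT and 19.6 and 74.7 in the Ern1-LKO libraries. Both were lowest in Ern1-LKO replicate 1, the library with the fewest peaks, yet their ranks stayed between 33 and 90 for Pdia4 and between 4 and 18 for Pdia6. Pdia6 was 1 of the 3 strongest members in every library.

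Pdia5, which encodes PDIR, and Txndc11, a thioredoxin-domain protein of the ER membrane, both lie on chromosome 16. The Pdia5 start peak had a fold enrichment of 28.1 and 39.0 in the Fed, 22.7 and 8.61 in the Fasted, 19.8 and 40.8 in the WT and 4.85 and 14.6 in the Ern1-LKO libraries. Its ranks were 91 and 78 in the Fed, 137 and 2145 in the Fasted, 122 and 113 in the WT, and 341 and 2561 in the Ern1-LKO libraries. In each comparison the 2 ranks of one group lay entirely behind those of the other, with Fasted behind Fed and Ern1-LKO behind WT. The Txndc11 start peak had a fold enrichment of 33.5 and 72.7 in the Fed, 57.1 and 23.0 in the Fasted, 25.6 and 60.9 in the WT and 10.7 and 53.1 in the Ern1-LKO libraries, and its ranks stayed between 7 and 40.

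Txndc5 encodes ERp46, a PDI with several thioredoxin domains. Its start peak on chromosome 13 had a fold enrichment of 35.2 and 65.5 in the Fed, 57.1 and 30.1 in the Fasted, 40.9 and 72.7 in the WT and 16.9 and 73.2 in the Ern1-LKO libraries. Ranks of 30 and 14 in the Fed, 12 and 11 in the Fasted, 5 and 4 in the WT and 9 and 6 in the Ern1-LKO libraries placed it among the first 30 peaks of every list. The gene of a long non-coding RNA, Gm31834, starts beside this Txndc5 start and its span overlaps Txndc5, so the peak cannot be given to either gene alone.

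Erp44 encodes a PDI relative that retrieves proteins from the Golgi to the ER, and Tmx1 and Tmx3 encode membrane-anchored relatives. The Erp44 start peak had a fold enrichment of 11.5 and 9.28 in the Fed, 10.1 in Fasted replicate 1, 13.4 and 7.47 in the WT and 11.8 in Ern1-LKO replicate 2, with none in the remaining libraries. The Tmx3 peak had a fold of 7.26 and 8.15 in the Fed, 8.01 in Fasted replicate 1 and 9.04 and 11.6 in the second replicates of WT and Ern1-LKO. The Tmx1 start peak was called in 4 libraries with folds between 4.34 and 5.30. Tmx1 is the member whose presence depended most on the limits: with a fold of at least 5 it remained in 2 libraries and with −log10 q of at least 10 in 1.

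The order of the members was similar from list to list although the values differed. Over the libraries that held a peak, the median fold of the strongest peak was 59.4 for Pdia6, 54.7 for Pdia3, 49.0 for Txndc5, 43.3 for Txndc11, 37.9 for Pdia4 and 21.2 for Pdia5. It was 12.9 for P4hb, 10.8 for Erp44, 8.15 for Tmx3 and 4.88 for Tmx1. Within the single lists Pdia3 stood at position 1 to 4 among the members, Pdia6 at 1 to 3, Txndc5 at 2 to 4 and Txndc11 at 2 to 5, so these 4 were not separated from each other. Pdia4 stood at 3 to 6 and Pdia5 at 5 to 7, overlapping their neighbours, and P4hb at 6 to 9. The medians over members with a peak were 30.7, 47.2, 38.0, 19.8, 22.5, 40.8, 13.2 and 23.1 for the libraries in the order Fed, Fasted, WT and Ern1-LKO, replicate 1 before 2. Over all genes with a peak they were 5.91, 8.75, 10.9, 7.94, 5.45, 8.53, 5.43 and 10.2.

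**Figure D2:**
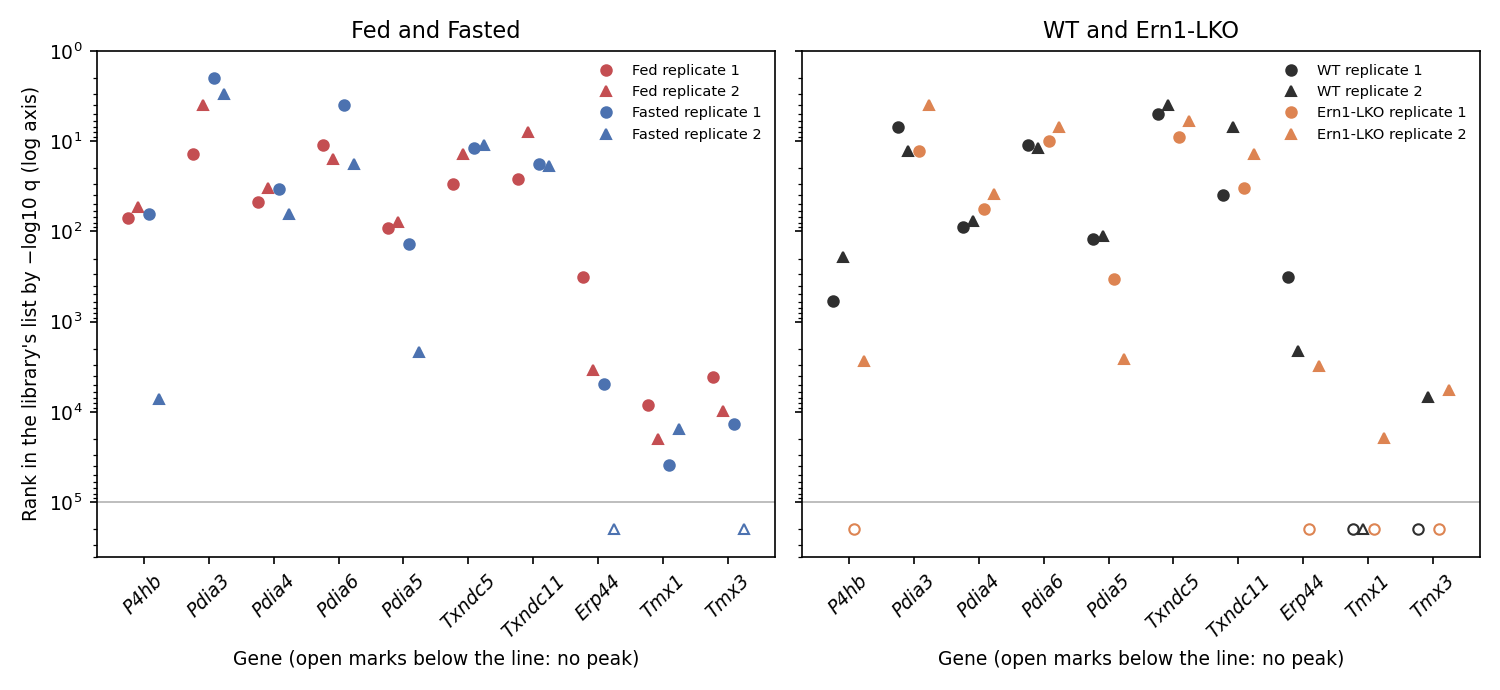
Rank of the best peak of each gene in its library's list by −log10 q (log axis, 1 at the top), for Fed and Fasted on the left and WT and Ern1-LKO on the right, with open marks where no peak was called. Pdia3, Pdia6 and Txndc5 stay within the first 30 peaks of all 8 lists, whereas P4hb falls to 7210 in Fasted replicate 2 and to 2758 in Ern1-LKO replicate 2.

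The first comparison sets fed against fasted livers, which differ in nutrient state. Both Fed lists held a peak for all 10 genes (background 68.8% of genes), and both Fasted lists for 8 (background 43.2%). The missing genes were Erp44 and Tmx3, and of the Fasted libraries only replicate 2 lacked them. No PDI gene (0 of 10) was present throughout Fed and absent throughout Fasted, where 1.2% of all genes were, and none (0 of 10) showed the reverse, where 0.0731% did.

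Ranks did not separate the Fed and Fasted libraries in a single direction. Of the 8 PDI genes with a top peak in at least 1 of these libraries, Erp44 and Pdia5 ranked behind in both Fasted libraries, as did 31.7% of 1937 genes handled in the same way. Pdia3 and Txndc5 ranked behind in both Fed libraries, as did 20% of those genes. Neither count was far from its background, and ranks from lists of unequal length show no change of binding by themselves.

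The Fasted libraries differed from each other at several members. Erp44, Tmx3 and the start peak of Tmx1 were called in replicate 1 and not in replicate 2. P4hb was at rank 64 in Fasted replicate 1 and 7210 in replicate 2, and Pdia5 at 137 and 2145, while Pdia3 stayed at 2 and 3 and Txndc5 at 12 and 11. By rank, P4hb was thus low in 1 of the 2 Fasted libraries.

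The second comparison sets WT against Ern1-LKO livers, in which the sensor that activates XBP-1 is deleted in the liver. In both WT libraries 8 of the 10 genes had a peak (18.3% of all genes), and in both Ern1-LKO libraries 6 did (3.54%). Tmx1 and Tmx3 were missing from WT replicate 1, and P4hb, Erp44, Tmx1 and Tmx3 from Ern1-LKO replicate 1. Ern1-LKO replicate 2 held all 10. No PDI gene (0 of 10) was present throughout WT and absent throughout Ern1-LKO, where 0.896% of all genes were, and none (0 of 10) showed the reverse, where 0% did. Peaks of Pdia3, Pdia4, Pdia6, Txndc5 and Txndc11 were among the top 698 in both libraries labelled Ern1-LKO. For Ern1-LKO replicate 1 this says only that a peak was called, since its whole list holds 698. They ranked between 9 and 57 in that list.

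By rank, P4hb, Pdia5, Txndc5 and Erp44 stood behind in both Ern1-LKO libraries, 4 of the 8 genes compared, against 33.2% of 1837 genes. Pdia4 and Pdia6 stood behind in both WT libraries, 2 of 8 against 22.4% of those genes. With 8 genes, neither count was far from its background, and the moves were of unequal size. P4hb moved from 594 and 193 in WT to 2758 and no peak, and Pdia5 from 122 and 113 to 341 and 2561. Txndc5 moved only from 5 and 4 to 9 and 6. Ranked by fold in place of −log10 q, Pdia5 still stood behind, and Txndc5 and Erp44 did not. P4hb had no top peak by fold in these libraries and was not compared. Its strongest peak ranked 1387 by fold in WT replicate 1, inside the gene, and 2003 in WT replicate 2. It ranked 11977 in Ern1-LKO replicate 2 and had no peak in replicate 1, so it too stood behind if a missing peak counts as last. In whole tissue, binding in fewer cells and less binding per cell cannot be told apart. With 2 libraries against 2, an exact permutation test of 1 gene cannot go below p = 0.33 in a two-sided test, so no test was made.

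Where both peaks are called, their ratio within a list does not depend on how long the list is, whereas a missing peak does. Each start peak was divided by the Pdia3 peak of its own library, and this ratio moves with either peak. Whether it also varies with the strength of a library was not tested. Pdia6, Txndc5, Txndc11, Pdia4, Pdia5 and P4hb all had their lowest ratio of folds in Fasted replicate 2. The rank comparisons above, this ratio and its form with Pdia6 below were all chosen after the values were seen. For Pdia5 the ratio of folds was 0.642 and 0.497 in the Fed, 0.289 and 0.157 in the Fasted, 0.543 and 0.749 in the WT and 0.298 and 0.224 in the Ern1-LKO libraries. The lower pair did not overlap the higher in either comparison. The ratio of summit tags for Pdia5 did the same, at 0.675 and 0.517 in the Fed, 0.299 and 0.155 in the Fasted, 0.474 and 0.540 in the WT and 0.255 and 0.155 in the Ern1-LKO libraries.

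The P4hb ratio of folds was 0.537 and 0.504 in the Fed, 0.370 and 0.103 in the Fasted, 0.118 and 0.236 in the WT, and no peak and 0.121 in the Ern1-LKO libraries. Fed and Fasted did not overlap. At the start itself, the Ern1-LKO replicate 2 value lay between those of the WT libraries. In tags at the summit the P4hb ratio was 0.391 and 0.650 in the WT and 0.260 in Ern1-LKO replicate 2.

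Txndc5 was at 0.806 and 0.835 in the Fed, 0.727 and 0.550 in the Fasted, 1.12 and 1.33 in the WT and 1.04 and 1.12 in the Ern1-LKO libraries. The lower WT and the higher Ern1-LKO value of Txndc5 were alike to 3 digits. Pdia6 was at 1.09 and 0.907 in the Fed, 0.926 and 0.535 in the Fasted, 1.13 and 1.40 in the WT and 1.21 and 1.14 in the Ern1-LKO libraries, and its groups overlapped in both comparisons. Pdia4 was at 0.906 and 0.718 in the Fed, 0.634 and 0.309 in the Fasted, 0.501 and 0.719 in the WT and 0.501 and 0.559 in the Ern1-LKO libraries. Txndc11 was at 0.766 and 0.926 in the Fed, 0.727 and 0.420 in the Fasted, 0.703 and 1.12 in the WT and 0.656 and 0.813 in the Ern1-LKO libraries. For Pdia4 and Txndc11, WT and Ern1-LKO overlapped and Fed and Fasted did not.

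Over the 7 genes compared, the ratio for the strongest peak was lower in both Fasted than in both Fed libraries for 5 (Pdia4, P4hb, Txndc5, Txndc11 and Pdia5), against 25.8% of 1936 genes. It was lower in both Ern1-LKO than in both WT libraries for 3 (P4hb, Txndc5 and Pdia5), against 29.5% of 1836 genes. The first share was above its background and the second near it. For P4hb the second call used the peak inside the gene in WT replicate 1 and the missing peak in Ern1-LKO replicate 1. A missing peak counted as the lowest ratio, so the calls and the background shares depend in part on list length. All 7 genes share the Pdia3 denominator, so their ratios are not independent of each other.

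With Pdia6 as the denominator, the ratio was lower in both Fasted libraries for 3 genes (Pdia4, P4hb and Pdia5), against 16% of genes. It was lower in both Ern1-LKO libraries for 2 (P4hb and Pdia5), against 28.4% of genes. The P4hb call again used the peak inside the gene in WT replicate 1 and the missing peak in Ern1-LKO replicate 1. At the start P4hb was at 0.105 and 0.168 of Pdia6 in the WT libraries and at 0.106 in Ern1-LKO replicate 2. Txndc5 and Txndc11 were no longer among them. Pdia5 was at 0.590 and 0.548 of Pdia6 in the Fed, 0.312 and 0.293 in the Fasted, 0.480 and 0.534 in the WT and 0.247 and 0.195 in the Ern1-LKO libraries. The Pdia5 start peak was therefore lower, relative to both strong members, in both Fasted than in both Fed libraries. It was likewise lower in both Ern1-LKO than in both WT libraries. Pdia5 was singled out here after the values were seen, and the share of all genes with the same joint pattern was not computed. The single calls were common, at 25.8% (Fasted) and 29.5% (Ern1-LKO) of genes over Pdia3 and the shares above over Pdia6. The Pdia5 replicates of each group were closer together over Pdia6 than over Pdia3.

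**Figure D3:**
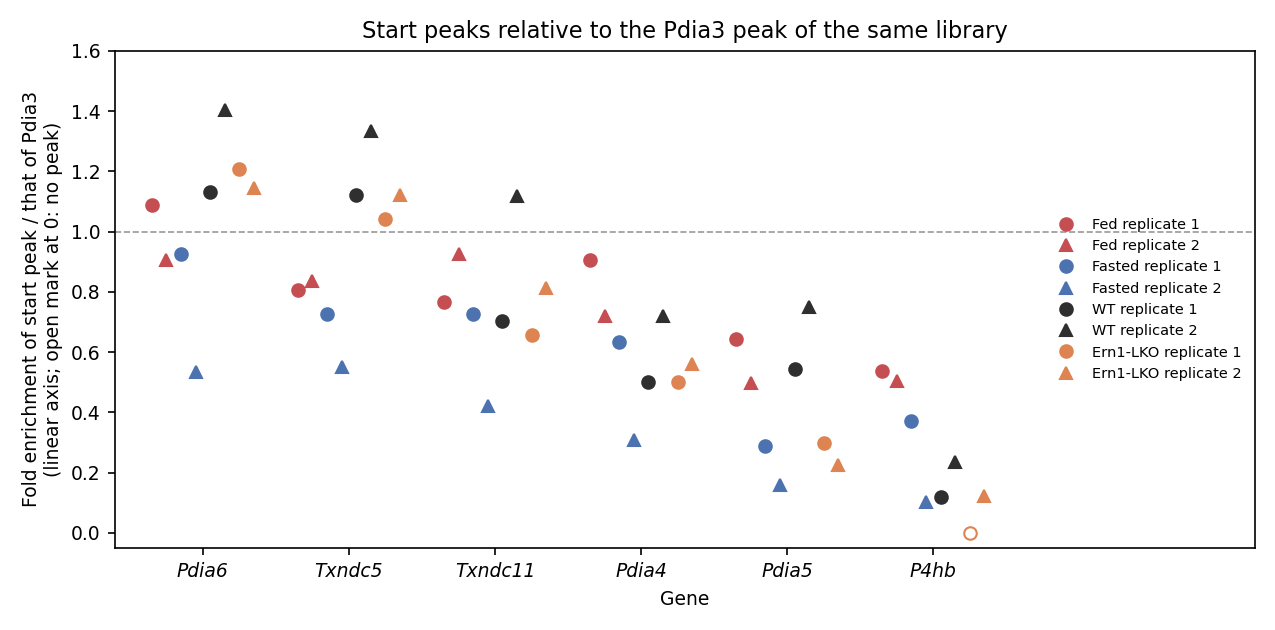
Fold enrichment of 6 start peaks divided by that of the Pdia3 peak in the same library (linear axis, dashed line at 1, open mark at 0 where no peak was called). Pdia5 drops from 0.642 and 0.497 in Fed to 0.289 and 0.157 in Fasted and from 0.543 and 0.749 in WT to 0.298 and 0.224 in Ern1-LKO, while the Pdia6 groups overlap.

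The strongest binding at these genes lay at their starts. For the 9 members with a RefSeq start in the table, 63 of 66 strongest peaks, 1 for each gene and library with a peak, had a summit within 1 kb of a start. Of their 136 peaks in the windows 68 lay there, and of the 56 among the top 698 of their list 53 did. These counts repeat the same 9 genes over libraries, and no share of all genes stands beside them. In all 8 libraries, 6 of the 9 had a summit within 1 kb of a start, as did 327 of 17492 genes (1.87%). Tmx3 has no start in the table used, and its summits lay 87 to 239 bp inside the lower-coordinate end of its span.

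Summits recurred at nearly the same base at several members and scattered most at Erp44. Over 8 libraries they spread by 27 bp at Pdia3, 41 bp at Txndc5, 51 bp at Txndc11, 56 bp at Pdia4, 101 bp at Pdia6 and 141 bp at Pdia5. They spread by 136 bp over the 7 libraries of P4hb, by 152 bp over 5 of Tmx3 and by 212 bp over 4 of Tmx1. The 6 Erp44 summits covered 1001 bp, from −299 to 656 bp relative to a start (negative upstream), and Invs, a gene for a ciliary protein read in the other direction, starts beside Erp44. Fasted replicate 2 lay farthest downstream at P4hb, Pdia4, Pdia6 and Pdia5, at −9, −7, 11 and 127 bp.

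**Figure D4:**
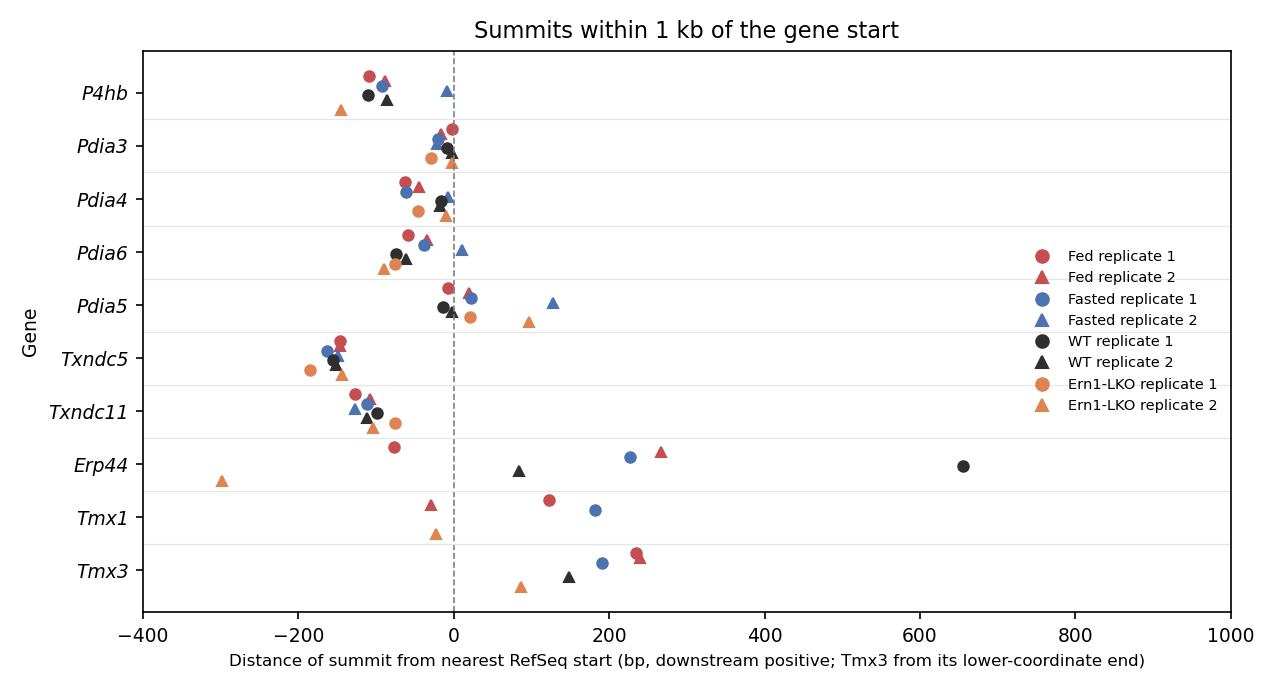
Distance of each start-peak summit from the nearest RefSeq start in bp, downstream positive, 1 mark per library (Tmx3 from the lower-coordinate end of its span). Pdia3 summits fall within 27 bp and Txndc5 summits within 41 bp of each other, and Erp44 summits cover 1001 bp.

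For each of 9 members, 1 promoter of 300 bases (250 before to 50 after a start) was searched on both strands. Where Txndc5 and Txndc11 have more than 1 start, the promoter was that of the start nearest the main peak. These were set beside all 32851 promoters in the table, which include those of non-coding genes. That background counts every promoter of a gene, near a peak or not, so the shares were not counted alike. GACGTGG was present in 4 of 9 (Pdia6, Pdia5, Txndc5 and Txndc11) and in 2.42% of all promoters. Its longer form TGACGTGG was present in 2 of 9 (Txndc5 and Txndc11) and in 0.676%. The ER stress response element was present in 1 of 9, Pdia6, and in 0.119%. ACGTG, which GACGTGG contains, was in 6 of 9 and 19.6%, and CCACG, which shares bases with GACGTGG on the opposite strand, was in 7 of 9 and 32.8%. CCAAT was in 5 of 9 and 37.4%, and GGGCGG, the GC box, in 6 of 9 and 35.7%. Of the 21263 promoters of protein-coding genes, GACGTGG was in 2.77%, CCACG in 37.4% and GGGCGG in 46.2%.

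Other genes bound at their starts held most of these letters more often than promoters at large. Among 458 promoters of the 321 other genes with a start summit in all 8 libraries, GACGTGG was in 12.0%, TGACGTGG in 4.59%, the ER stress response element in 1.75% and GGGCGG in 74.9%, while CCAAT was in 34.1%. The members are too few to be set apart from these genes.

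The short runs printed above were chosen for elements near the summits, so the distances given here are a description of them. At Txndc5 the median summit was 16.5 bp upstream of the centre of GACGTGG, with all 8 summits 51 to 10 bp upstream of it, and a further CCACG lay beyond, 11.5 bp upstream of the median summit. At Txndc11 the median was 12 bp upstream, and summits lay on both sides of the element, from 29 bp upstream to 22 bp downstream. At Pdia5 the median was 26.5 bp downstream, with a range from 8 bp upstream to 133 bp downstream. At Pdia6 summits lay a median of 28.5 bp downstream of the centre of the ER stress response element and 49.5 bp upstream of that of GACGTGG, so the median summit lay between them.

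Pdia3 and Pdia4 had high peaks without ACGTG. The Pdia3 promoter window held neither ACGTG nor CCACG, and its summits lay a median of 14.5 bp downstream of the nearer of its CCAAT boxes. The Pdia4 window held no ACGTG, and its summits lay a median of 41.5 bp downstream of a CCAAT box. At P4hb the summits lay a median of 39 bp upstream of ACGTG. At Erp44 the promoter held ACGTG and CCACG, but its 6 summits lay a median of 286 bp from ACGTG in either direction. A match is a run of letters and not a measured site, and its absence says only that these letters are not in this window.

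Away from these places the signal was thin and seldom repeated. Peaks in the windows merged into 58 regions, of which 10 touched the 1 kb around a RefSeq start, 1 lay at the lower-coordinate end of Tmx3 and 6 were called in all 8 libraries. Of the other 47 regions, 38 were called in 1 library, and 30 of those in Fed replicate 1, the library with the most tags and the most peaks. Ern1-LKO replicate 1 had no peak away from a start.

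The strongest of the 9 that recurred lay inside Txndc5 at chr13:38522944-38523623, 4.52 kb downstream of the start nearest to its main peak. It had a fold of 19.2 in Fed replicate 1 (rank 221), 22.5 in WT replicate 1 (rank 151) and 8.06 in WT replicate 2. It was not called in either Fasted or either Ern1-LKO library, nor in Fed replicate 2. A second region inside Txndc5, 24.9 kb downstream, was called in both Fed libraries, Fasted replicate 1 and WT replicate 2 with folds of 4.59 to 8.11.

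Inside Pdia5, the longest member, 3 regions recurred. The region 15.2 kb downstream of the start was called in Fed replicate 2, both Fasted libraries and Ern1-LKO replicate 2 with folds of 4.39 to 7.19. That at 80.4 kb was called in Fed replicate 2, WT replicate 2 and Ern1-LKO replicate 2 with 6.34 to 10.8. That at 34.3 kb was called in Fed replicate 1 at 3.73 and WT replicate 1 at 9.90. No group had both its libraries at 80.4 or 34.3 kb.

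The remaining 4 recurring regions were weak or belonged to a neighbour. The region inside P4hb, 1.94 kb downstream of the start, was called in Fed replicate 1 at 6.13 and WT replicate 1 at 6.87. One beyond the 3′ end of Pdia3 lay 174 bp from the start of Ell3, an elongation factor gene, and was called in 5 libraries with folds of 4.31 to 8.73. One inside the span of Txndc11, near its 3′ end at chr16:11075125-11075537, was called in 5 libraries with 4.87 to 5.79. One past the 3′ end of Tmx1, 16.3 kb from its start, was called in both Fed libraries and Fasted replicate 2 with 3.37 to 7.40.

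**Figure D5:**
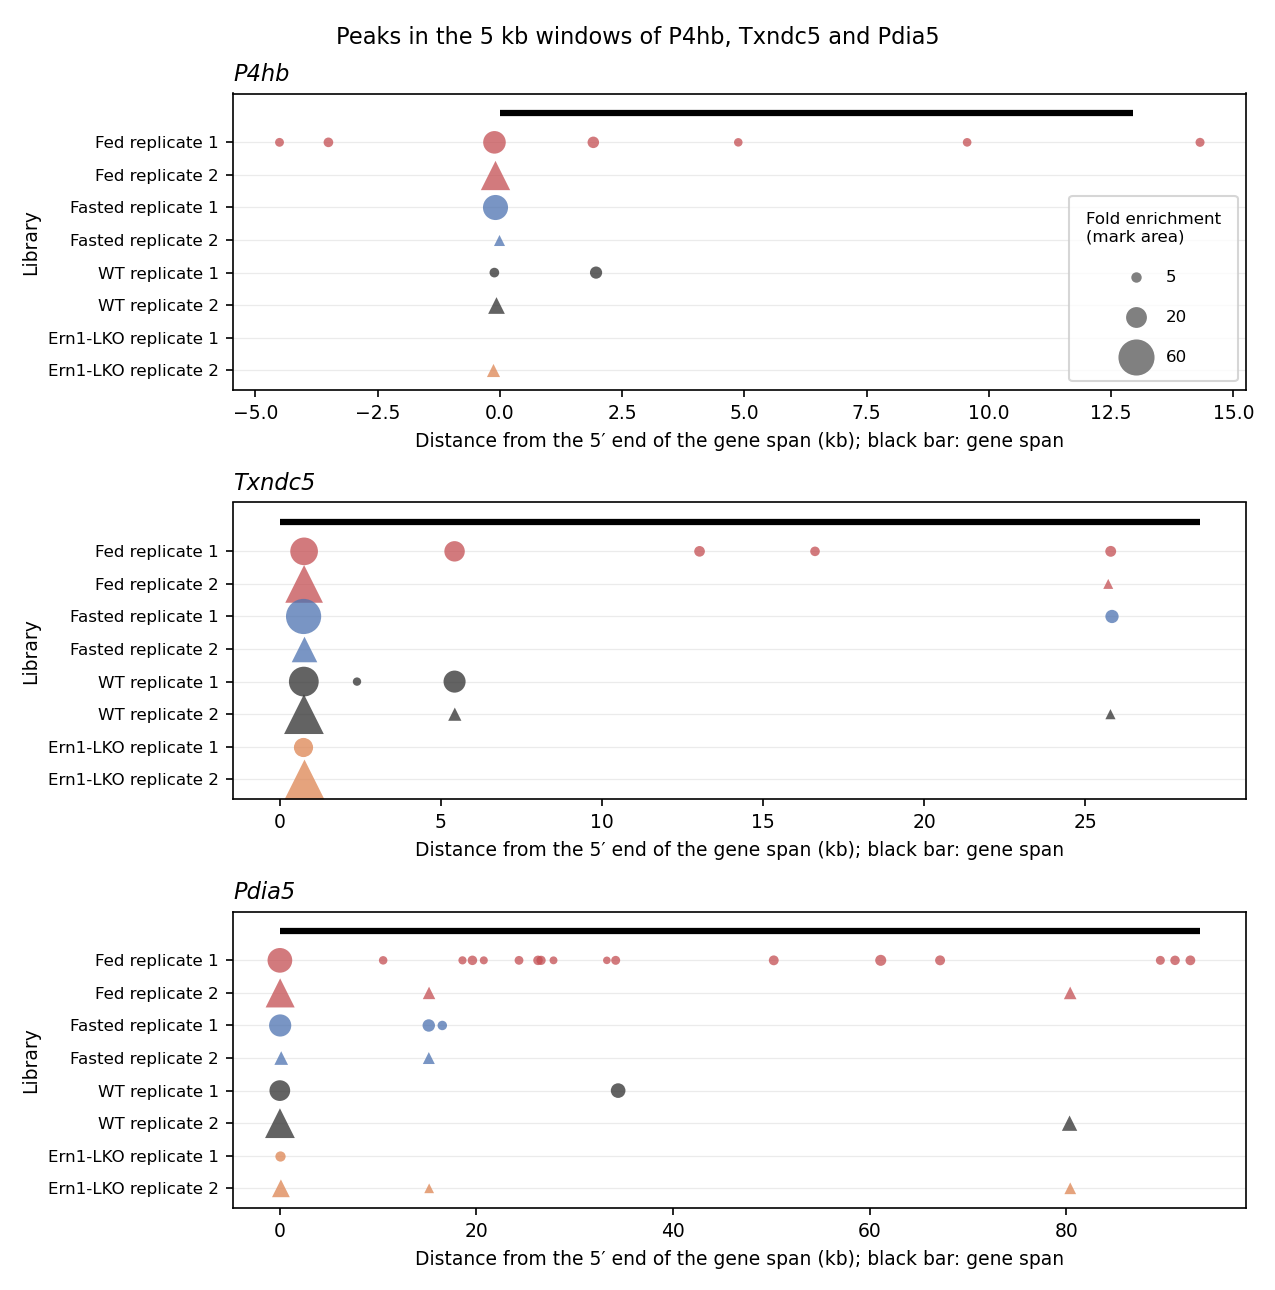
All peaks in the windows of P4hb, Txndc5 and Pdia5 by library against the distance in kb from the 5′ end of the gene span, with mark area for fold enrichment. The start peak recurs in 7 or 8 libraries, and the Txndc5 region with folds of 19.2, 22.5 and 8.06 appears in 3.

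Other genes of the pathway were taken from lists written with earlier results of these data known. Of 13 further PDI family genes, a peak was called in each replicate of Fed for 8, of Fasted for 5, of WT for 4 and of Ern1-LKO for 1. The shares of all protein-coding genes were 68.8%, 43.2%, 18.3% and 3.54%. Dnajc10, which encodes the reductase ERdj5, was the 1 called in all 8, at ranks 122 and 76 in the Fed, 154 and 1780 in the Fasted, 160 and 102 in the WT and 152 and 90 in the Ern1-LKO libraries. Agr2 and Agr3, PDI relatives of secretory epithelia, had a peak in 0 libraries. Pdilt, a testis relative, was called in each WT list and in no Ern1-LKO list, with none of its peaks in the top 698.

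Of 11 ER thiol oxidases, peroxidases and reductants, a peak was called in each replicate of Fed for 9, of Fasted for 6, of WT for 6 and of Ern1-LKO for 2. The 2 called in all 8 were Ero1b, an oxidase that recharges PDI, and Selenof, an ER selenoprotein. Ero1b ranked 173 and 125 in the Fed and 133 and 9593 in the Fasted libraries. It ranked 110 and 154 in the WT and 337 and 1703 in the Ern1-LKO libraries. Like Pdia5, it thus ranked lower in Fasted replicate 2 than in replicate 1. The Ern1-LKO lists hold 698 and 30796 peaks, so a rank beyond 698 was possible only in replicate 2. Selenof ranked between 223 and 2910. Gpx8, a peroxidase of the ER, had a peak in 0 libraries.

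Of 10 partners of P4hb and Pdia3, a peak was called in each replicate of Fed for 10, of Fasted for 8, of WT for 5 and of Ern1-LKO for 3. P4ha2, an alpha subunit of prolyl 4-hydroxylase, Calr and Canx were called in all 8. P4ha2 ranked between 434 and 5226. Calr, which encodes calreticulin, ranked 52 and 118 in the Fed, 178 and 9479 in the Fasted, 98 and 117 in the WT and 70 and 108 in the Ern1-LKO libraries. Canx, which encodes calnexin, ranked 38 and 103 in the Fed, 122 and 5389 in the Fasted, 108 and 194 in the WT and 21 and 391 in the Ern1-LKO libraries. Both ranked far lower in Fasted replicate 2 than in replicate 1, as did P4hb, Pdia5, Dnajc10 and Ero1b, whereas Pdia3 was at 3 and 2. The background shares for these counts are those given above for the same libraries.

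Among 571 genes outside the 10 with a peak in all 8 libraries, the gene whose strongest folds were most like the median of the PDI genes was Ppib, an ER prolyl isomerase. The Euclidean distance over 8 log2 folds was 0.927. Next came Vegfb and LOC114841036, which share their peaks, at 1.06.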

How the data were processed

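XBP-1 ChIP-seq peak lists from 8 mouse liver libraries were used, 2 per group, of 12 lists deposited by the authors. The 4 lists of pooled groups served as an alternative only. Peaks were narrow peaks of MACS 2.1.1.20160309 per the file headers, called against Input-1 (39671280 kept tags) or Input-2 (16513198) at a q cutoff of 0.05 with 1 tag kept per position. The submitters' processing notes name MACS2 2.2.1, Bowtie2 2.2.5, FastQC 0.11.3, bcl2fastq and mm10. Per the file headers, a peak carries the caller's pileup (signal in tags), its fold enrichment (a ratio over local background) and the −log10 of its p-value and its q-value. All were taken as deposited by the authors and used within a list only. Smaller libraries were not scaled up: per the file headers the larger dataset was scaled to the smaller.

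Gene spans, starts and promoters came from RefSeq tables of GRCm38.p6, where 9 of the 10 members have a promoter entry and exons are not given, so peaks are placed by span and start only. Summits within 5000 bp of a span were assigned with Python 3.11.15, pandas 2.3.3 and NumPy 2.4.6, and figures drawn with matplotlib 3.10.9. The assignment was tested on simulated data and recovered 500 of 500 planted genes. Ranks follow −log10 q, then fold, then position. A gene entered a rank or ratio comparison where at least 1 of the 4 libraries had it among its top 698 peaks, and a missing peak counted as last. No test was made: the lists hold no counts per library outside peaks, and 2 libraries against 2 cannot pass 0.05 in an exact permutation test. The rank and ratio comparisons were added after the values were seen. The members and gene lists were chosen with earlier results of these data known. All 10 members are named, and from each list the genes called in all 8 libraries or in 0, or throughout 1 group and nowhere in its partner group. Alternatives were −log10 q of at least 5 and 10, a fold of at least 5, narrower windows, the pooled lists, equal numbers of top peaks, other rank orders, a 50% overlap and leaving out each library. The lowest summit of any called peak ranged from 4 tags in Ern1-LKO replicate 2 to 10 in replicate 1 of that group.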

Additional observations from a re-analysis of the deposited data

How the results depend on the processing

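Of 230 values recomputed under another setting, 218 were within 1.5 times the main count or within the spread of the libraries. With equal numbers of top peaks, 5 genes had a peak in both Fasted libraries (8 with full lists), and 1 was present throughout WT and absent throughout Ern1-LKO (0 with full lists). With 5 times as many top peaks, 8 genes were present in Ern1-LKO replicate 2 (5 before). Leaving out libraries, the count in both Ern1-LKO libraries ran from 6 to 10, with 10 when Ern1-LKO replicate 1 was left out. The count in both Fed and neither Fasted library ran from 0 to 2, with 2 without Fasted replicate 1. The count present throughout WT and absent throughout Ern1-LKO ran from 0 to 2, with 2 without Ern1-LKO replicate 2, and the reverse from 0 to 1, with 1 without Ern1-LKO replicate 1. Such counts can only stay or rise when fewer lists must meet the rule. The rank and ratio comparisons and their alternatives were chosen after seeing the data. Ranked by pileup, 4 genes stood behind in both Fasted libraries (2 by −log10 q) and 0 in both Fed (2). Ranked by fold, 1 gene stood behind in both Fed (2) and 1 in both Ern1-LKO libraries (4). The genes compared changed too: P4hb had no top peak by fold in the WT or Ern1-LKO libraries and dropped out of that comparison. With Pdia6 in place of Pdia3 as denominator, 3 genes were lower in both Fasted libraries (5 with Pdia3). The cause of these differences was not tested. No paired analysis was possible because the results come from no test, and the lists hold no counts to fit with a block. The planned description of CXXC motifs in the proteins was not run. Unequal list length, 698 to 82975 peaks, limits every absence, and a gene without a peak may have bound XBP-1 below the caller's threshold.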
